A study of Mus musculus with 45 samples.

Results

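A set of 107 of the 54532 genes in the count table was raised by all-trans retinoic acid (RA) late in the culture of mouse neuroepithelial organoids, after the first hours of treatment had passed with little difference. The members were chosen by their measured values. Each library was scaled to a total of 1000000 counts (the unit is CPM), and the RA difference d at a time was the log2 of the mean RA CPM + 0.5 minus the log2 of the mean untreated CPM + 0.5. A member had d of at least 1 at 66 h, d of at least 1.5 at 78 h, a mean of at least 3 CPM in the RA libraries at 78 h, and d within 0.5 of 0 at both 8 h and 18 h. Genes named Hox or Krt were to be left out, and 0 such genes met the other conditions. Without the 2 early conditions, 372 genes met those at 66 h and 78 h.

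The organoids were grown clonally in Matrigel, a basement membrane gel, from wild-type R1 mouse embryonic stem cells in N2B27, a serum-free medium that permits neural differentiation. The arms split at day 2: medium alone (untreated) or medium with 250 nM RA, a dose taken from the study's methods because the label's protocol gives it in µM. RNA was taken at day 2 and then in both arms, first 8 h and 18 h later and from 30 h to 78 h every 12 h (the label's protocol puts the last 2 times 2 h later than its titles do), which gave 15 groups of 3 biological replicates, 45 libraries in all, each from many organoids pooled. All of them come from 1 cell line, and every organoid passed through the same 2 days without RA.

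RA is a small derivative of vitamin A that enters the nucleus and binds receptors sitting on DNA as dimers, so that its direct targets can respond within hours while other genes follow through the products of those targets. In the embryo it is made by the somites and carries posterior identity to the hindbrain and spinal cord. It also helps to set the dorsal and ventral progenitor domains of the neural tube and the timing of neuron formation. In cultures of embryonic stem cells it can in addition open programmes of extra-embryonic tissues such as trophoblast.

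Library totals ran from 17298632 to 39688686 counts, with a median of 25923745, so that 3 counts corresponded to between 0.0756 and 0.173 CPM. The libraries were not uniform in ways that the groups do not explain. For 4 genes on the Y chromosome the average was 1.24 to 3.43 CPM in 6 libraries, against 22.7 to 89.7 CPM in the remaining 39. The 6 were replicate 3 of RA 8 h, the untreated group of 30 h, and 2 of its RA counterparts (replicates 1 and 3). RA 30 h replicate 2 lay nearer to the mean of RA 42 h than to that of its own group over 12991 genes, with root mean square differences of 0.438 and 0.574 in log2(CPM + 1). RA 78 h replicate 1 lay nearer to RA 66 h (0.182) than to its own group (0.189), and without it the rule gave 110 genes, 102 of them shared. RA 8 h replicate 3, which also entered the choice of members, lay nearest to its own group, at 0.531. Without that library the rule gave 109 genes, 97 of them shared with the 107. Library numbers in the labels form 2 series. The later one holds both arms of 66 h and 78 h entirely, RA 30 h replicates 2 and 3, untreated 54 h replicate 3 and day 2 replicate 3, so that series and time cannot be told apart for the last 2 times. The neuroepithelial markers fixed for the label (10 genes) summed to between 454 and 478 CPM at day 2 and, at 78 h, to between 1613 and 1831 CPM with RA and between 1303 and 1409 CPM without.

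The difference between the arms opened gradually in the members. In RNA from whole organoids, fewer cells of a type and less RNA per cell cannot be told apart. Over all 107 the median of d was 0.00 at 8 h and 0.15 at 18 h, where the selection held it near 0, and 1.90 at 66 h and 2.13 at 78 h, where the selection demanded a rise. Between these, at times the selection did not use, the median was 0.63 at 30 h, 0.84 at 42 h and 1.36 at 54 h, beside 0.16, 0.06 and 0.05 over the 16552 genes with a mean of at least 10 counts. A d of 1 or more was reached by 29 members at 30 h, 43 at 42 h and 71 at 54 h, against 9.59%, 6.22% and 6.10% of those genes. The RA means at 30 h include replicate 2, which lay far above the other RA libraries in some members and below them in others. The RA counts at 30 h were 337, 1994 and 352 for Cldn4 and 139, 48 and 148 for Lcp1. The values of d at 30 h were not taken without that library. By the rule most members had their highest difference at 66 h or 78 h (17 and 77), and 13 had it at 30, 42 or 54 h. The spread among the members was wide at 54 h, from -0.38 for Esrrg, an orphan nuclear receptor, to 4.19 for Prdm13, a regulator of spinal interneuron fate.

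**Figure D1:**
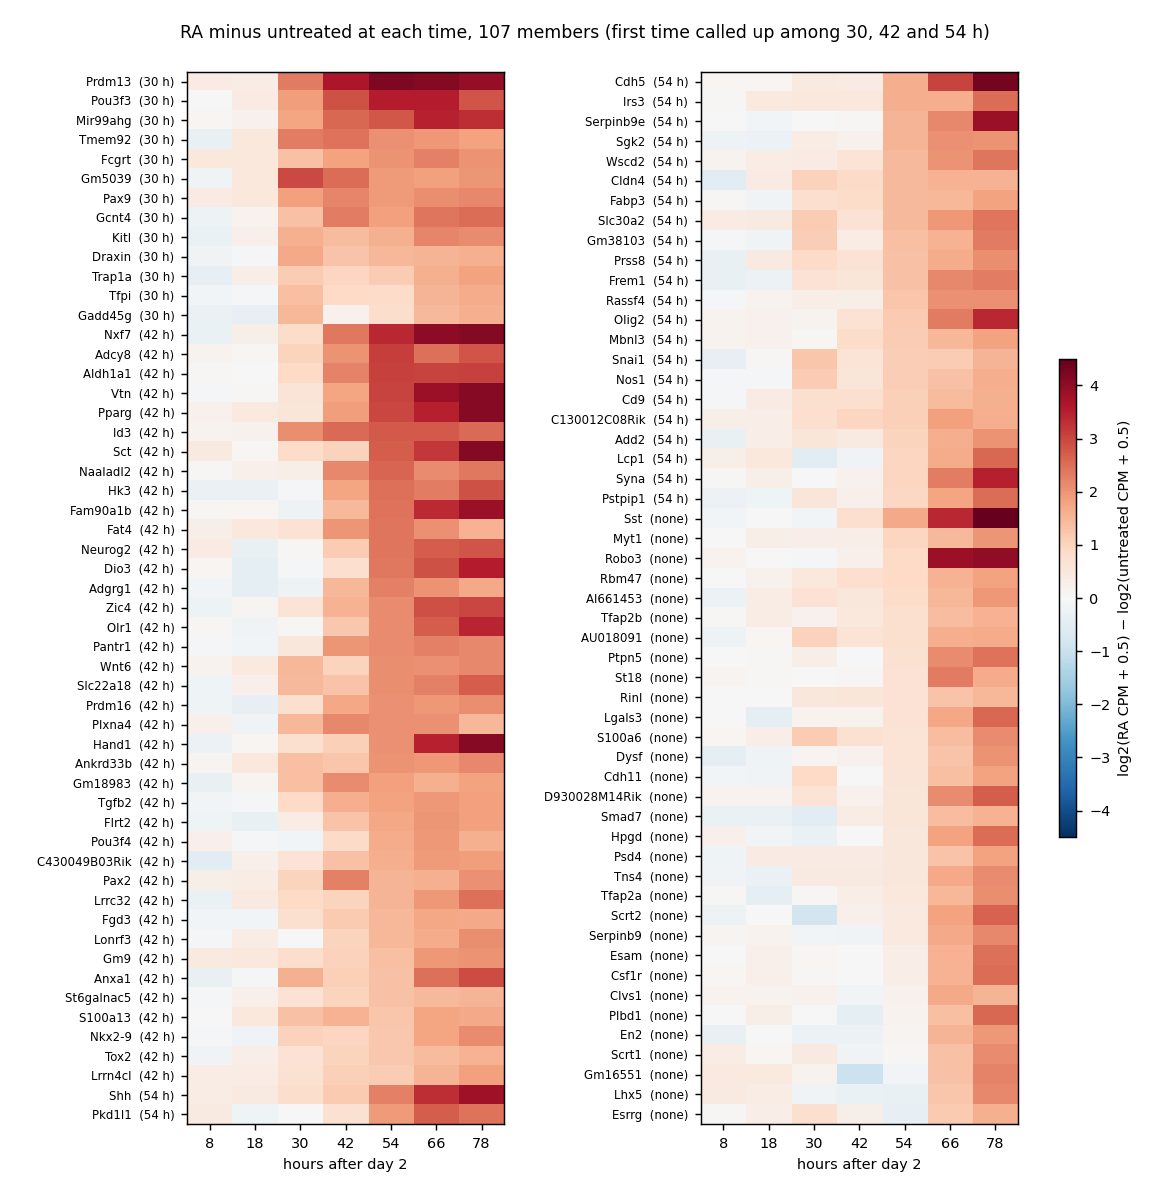
Each row is a member and each column a time in hours after day 2, with colour giving log2(RA CPM + 0.5) minus log2(untreated CPM + 0.5), from the means of 3 libraries per arm. Rows are ordered by the first of 30, 42 and 54 h at which edgeR called the member up (in brackets) and then by the difference at 54 h. The columns at 8 h and 18 h are pale and those at 66 h and 78 h red because they chose the members.

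Levels in RA 78 h ran from 3.03 to 159 CPM, with a median of 9.93 CPM. The SD over the 3 libraries was 10.4% of the mean in the median member. Per kilobase of exon the highest were Id3, an inhibitor of basic helix-loop-helix factors, at 88.9 CPM per kb, Trap1a, a tumour rejection antigen gene of the X chromosome, at 68.7 CPM per kb, and Cd9, a tetraspanin of the cell surface, at 40.5 CPM per kb. Of the members 99 are protein coding and 8 are not, 8 lie on the X chromosome, and together they lie on 20 chromosomes.

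The conditions cut through a continuum of values. On d at 66 h the members nearest the threshold were Snai1 (1.13), Esrrg (1.19) and Lhx5 (1.24), and only 4 genes missed the set on this condition alone, among them Map2 (0.83). On d at 78 h Rinl and Plxna4 (both 1.51) and Clvs1 (1.52) lay just inside, and St8sia1 (1.48), Usp2 (1.48) and Rgs4 (1.47) lay first among the 76 just outside. On the level in RA 78 h Gm18983 (3.03 CPM), Gm9 (3.06 CPM) and Csf1r (3.29 CPM) lay inside, and Rmst (2.97 CPM), Nwd1 (2.90 CPM) and Adam12 (2.79 CPM) were the nearest of the 48 that missed it. The early bound that removed most was the upper one at 18 h, which 124 genes missed alone. Gm5039 (0.49), S100a13 (0.49) and Tmem92 (0.49) lay inside it, and Myl4 (0.50), Plac1 (0.50) and Klhl13 (0.50) outside. The upper bound at 8 h was missed alone by 7 genes, the lower bounds by 17 at 8 h and 2 at 18 h.

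Whether the members already differed at the 3 times that played no part in choosing them was asked with edgeR's quasi-likelihood test, fitted to all genes of the 6 libraries of a time. A gene was called at an adjusted p (Benjamini-Hochberg over all genes tested) under 0.01 and a log2 fold change past 1. At 54 h 74 of the 107 members were called up and 0 down, where the background was 7.17% of 16413 genes up and 5.99% down. DESeq2 also called 0 members down at 54 h, and 0 were lower at an unadjusted p under 0.05 in edgeR. At 42 h 49 members were called up and 1 down, against 7.49% and 4.96% of 16508 genes. At 30 h 13 members were called up and 0 down, against 5.98% and 2.48% of 16631 genes. DESeq2 called 1 member down at 30 h, and edgeR put 2 lower at an unadjusted p under 0.05. Tested at all, that is with enough counts, were 102 members at 54 h, 95 at 42 h and 74 at 30 h. Since a member at low counts passes this filter mainly through the arm where it is high, the counts are read against all 107. The groups of 3 did not overlap, with RA above, in 53 members at 30 h, 76 at 42 h and 97 at 54 h, beside 16.99%, 17.74% and 17.08% of the 39209 genes with a count. That background is wider than the 16552 genes with a mean of at least 10 counts. It holds many genes with few counts, in which groups separate less easily, and no share was taken over genes at the members' levels.

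The calls accumulated over time. The rule held d small at 18 h and demanded a rise at 66 h. A growing number of calls between these times was therefore partly built into the choice of members. So was the persistence of calls from 42 h to 54 h. Every one of the 49 members called up at 42 h was called up at 54 h (66.2% of the 74), and of the 13 called up at 30 h 10 were called at 42 h and 11 at 54 h. Another 24 members were called first at 54 h. The same overlaps were not taken over all genes called, so these overlaps do not set the members apart from other genes. In 31 members no call was made at any of the 3 times, of which 5 (Sst, Csf1r, Myt1, Clvs1 and D930028M14Rik) had too few counts to be tested at 54 h. The count at 42 h was 27 and that at 54 h 49 when each library had to hold 10 counts of a gene. The count at 30 h depended on single libraries: it was 1, 2 and 3 without untreated replicates 1, 2 and 3, 8 without RA replicate 1, and 43 in 1 fit of all 45 libraries.

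**Figure D2:**
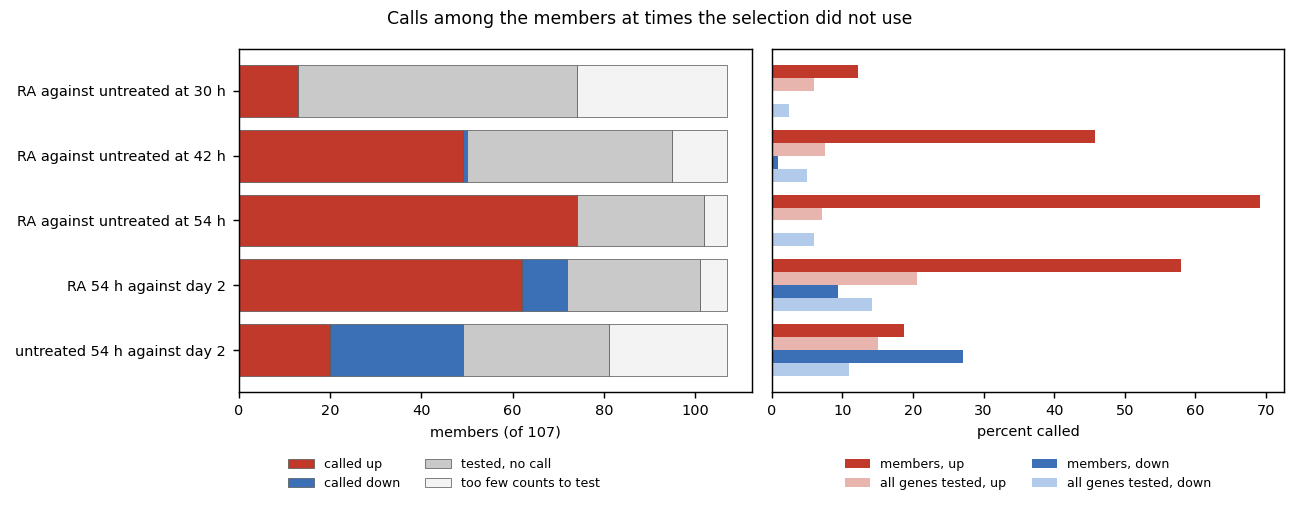
Left, bars split the 107 members of each comparison into called up, called down, tested with no call and too few counts to test, in numbers of genes. Right, the percent called among the members (of 107) stands beside the percent called among all genes tested: at 54 h 74 of 107 members were called up, against 7.17% of all genes.

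Several members are known from the developing nervous system. Pou3f3, a POU homeodomain transcription factor of neural progenitors, lies on chromosome 1 (GRCm38, chr1:42695768-42703176, plus strand). It measured 0.495, 0.411 and 0.81 CPM at day 2, 62.5, 41.1 and 37.7 CPM in RA 54 h and 2.77, 4.28 and 3.79 CPM in untreated 54 h, and it reached 138, 161 and 175 CPM in RA 78 h against 23.3, 19.5 and 23.1 CPM without RA. All RA libraries stood far above all untreated ones, although the untreated level rose as well. The log2 fold change was 3.23 ± 0.17 (standard error) at 42 h (adjusted p = 1.3e-07) and 3.63 ± 0.21 (adjusted p = 2.3e-07) at 54 h. Pantr1, a long noncoding RNA that starts 0.9 kb away on the other strand with 0 coding genes between, gave 5.3, 6.15 and 4.45 CPM with RA and 0.797, 0.634 and 1.07 CPM without at 54 h, a log2 fold change of 2.59 ± 0.24 (adjusted p = 6.6e-06). Pou3f4, a relative of Pou3f3 on the X chromosome, gave 5.83, 5.03 and 3.78 CPM and 0.938, 1.39 and 1.2 CPM. The groups did not overlap here either, and the log2 fold change was 1.98 ± 0.23 (adjusted p = 4e-05).

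Prdm13 had the highest d of the set at 54 h, 4.19, on the scale with 0.5 CPM added. It measured 23.3, 16.8 and 19.3 CPM with RA and 0.844, 0.436 and 0.55 CPM without, a log2 fold change of 4.98 ± 0.21 (adjusted p = 2.2e-08), after 5.05 ± 0.29 (adjusted p = 2.3e-07) at 42 h. Unlike Pou3f3 it did not climb further with RA: at 78 h the RA libraries gave 18.1, 18.2 and 23.1 CPM. Prdm16, another PR-domain factor, known from neural stem cells, gave 12.4, 12.4 and 13.9 CPM with RA at 54 h and 2.86, 2.77 and 2.49 CPM without, which changed by 2.20 ± 0.13 (adjusted p = 2.7e-07) on the log2 scale. Its untreated libraries at 54 h lay below the day 2 level of 4.99, 4.57 and 4.32 CPM.

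Fat4 and Adgrg1 act at the cell surface of the neural epithelium. Fat4, a giant cadherin of planar polarity, rose in both arms: it gave 2.95, 3.05 and 3.56 CPM untreated and 26.7, 14.7 and 16.2 CPM with RA at 54 h, a log2 fold change of 2.51 ± 0.22 (adjusted p = 5.2e-06), and 22.3, 18.2 and 24 CPM and 48.6, 69.4 and 77.2 CPM at 78 h. The gap narrowed late, with d at 2.42 at 54 h and 1.57 at 78 h. Adgrg1, an adhesion G protein-coupled receptor of neural progenitors, gave 32, 28 and 27.3 CPM with RA and 4.45, 6.22 and 6.05 CPM without at 54 h, and changed by 2.31 ± 0.13 (adjusted p = 1.6e-07). At 30 h the order had been different, with 2.57, 5.5 and 1.48 CPM with RA and 3.5, 4.1 and 3.88 CPM without, the groups overlapping through RA replicate 2 alone.

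Progenitor factors of the dorsoventral axis had different starting levels. Olig2, which marks motor neuron progenitors, gave 0.607, 1.08 and 0.935 CPM with RA and 0.0469, 0.198 and 0.0647 CPM without at 54 h, a log2 fold change of 2.98 ± 0.52 (adjusted p = 0.00068), and 4.35, 5.37 and 9.19 CPM with RA at 78 h. On 1, 5 and 2 untreated counts at 54 h the size of that fold is uncertain. Shh, the ventralising signal of floor plate and notochord, gave 3.6, 1.35 and 1.31 CPM with RA at 54 h. Its untreated libraries held 3 counts in all there, so no fold is given, and the test called it up (adjusted p = 9.2e-05). Nkx2-9, a homeobox gene of ventral progenitors, differed from both in its history, with 6.77, 6.62 and 6.75 CPM at day 2, 5.14, 5.03 and 5.2 CPM in RA 54 h and 2.3, 1.19 and 2.23 CPM in untreated 54 h. That is a log2 fold change between the arms of 1.37 ± 0.23 (adjusted p = 0.00047) that came with an untreated level below day 2. Pax2, a paired-box factor of interneurons and the midbrain-hindbrain boundary, gave 6.23, 4.12 and 4 CPM with RA and 1.69, 0.951 and 1.29 CPM without. Zic4, a zinc finger gene of the dorsal neural tube, gave 1.94, 5.54 and 6.32 CPM and 0.609, 0.634 and 0.744 CPM. RA and untreated libraries were fully separated for both, with log2 fold changes of 1.81 ± 0.25 (adjusted p = 0.00015) for Pax2 and 2.73 ± 0.42 (adjusted p = 0.00029) for Zic4. An exon of Zic4 overlaps one of Zic1 on the opposite strand.

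A last neural layer was the neuronal one, and several of its genes were not called by 54 h. Neurog2, a proneural basic helix-loop-helix factor, came first, with 4.45, 3.92 and 3.74 CPM with RA and 0.234, 0.594 and 0.227 CPM without at 54 h (log2 fold change 3.45 ± 0.32 (adjusted p = 7e-06)). Robo3, the receptor that lets commissural axons cross the midline, followed steeply: 2.51, 2.03 and 0.935 CPM with RA at 54 h, 19.5, 24.7 and 17.4 CPM at 66 h and 34.3, 41.3 and 53.1 CPM at 78 h. Without RA it stayed at 0.562, 0.475 and 1.16 CPM at 54 h and 2.57, 1.85 and 2.17 CPM at 78 h. At 54 h its log2 fold change of 1.20 ± 0.42 (adjusted p = 0.033) did not pass the threshold, and it did (1.49) without RA 54 h replicate 3. Sst, the neuropeptide somatostatin, had the highest d of the set at 78 h, 4.53, on 16.6, 13.1 and 21.8 CPM with RA and 0.265, 0.206 and 0.33 CPM without. In RA 54 h it gave 2.18, 0.338 and 0.973 CPM, with most of the signal in replicate 1. Myt1, a zinc finger factor of early neurons, gave 8.17, 7.2 and 9.73 CPM with RA at 78 h and 1.81, 1.94 and 1.51 CPM without. Its relative St18 gave 5.25, 5.51 and 5.28 CPM and 1.93, 0.824 and 1.29 CPM. Both were under 1.3 CPM in every library up to 54 h.

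Scrt1 and Scrt2, neuron-specific repressors of the Snail family, were also not called by 54 h. Scrt2 gave 1.01, 0.844 and 0.636 CPM with RA and 0.562, 0.357 and 0.518 CPM without at 54 h, and 11.3, 13.2 and 14.5 CPM and 2.08, 1.15 and 1.68 CPM at 78 h. Lhx5, a LIM homeobox gene of interneurons, gave 1.05, 0.506 and 0.561 CPM with RA and 1.03, 0.832 and 1.2 CPM without at 54 h, where the arms overlapped. By 78 h it had 5.72, 6.25 and 7.21 CPM and 1.17, 0.824 and 1.13 CPM. En2, a midbrain-hindbrain homeobox gene, was at 7.76, 6.53 and 7.83 CPM at day 2 and did not separate by 54 h, with 2.87, 5.33 and 4.9 CPM with RA and 3.7, 3.72 and 4.46 CPM without. Neither Lhx5 nor En2 was called at 30, 42 or 54 h. Other guidance genes were called up at both 42 h and 54 h: the log2 fold change at 54 h was 1.62 ± 0.24 (adjusted p = 0.00022) for Draxin, a secreted repellent, 2.22 ± 0.18 (adjusted p = 3.2e-06) for the semaphorin receptor Plxna4, and 1.91 ± 0.19 (adjusted p = 1.3e-05) for Flrt2, a transmembrane ligand of Unc5 receptors. The lowest RA library at 54 h gave 5.22 CPM of Draxin, 10.7 CPM of Plxna4 and 5.91 CPM of Flrt2, above the highest untreated ones at 2.72, 2.85 and 2.16 CPM.

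Read against the whole of the neural lists, the members were a small part. Of the 84 genes of the neuron differentiation list, 69 were tested at 54 h, 19 were called up and 18 down, with a median log2 fold change of 0.18 beside 0.00 over all genes tested. The ones that fell included the neurofilament genes Nefl, Nefm and Nefh, but also Neurod1 and Ebf1. Those that rose included Neurog1, Neurog3, Insm1 and Nhlh1, but also Mapt, Stmn4, Chgb, Chrna3 and Chrnb4. The list holds 6 members: Gadd45g, Lhx5, Myt1, Neurog2, Robo3 and St18. Without these the list summed to between 818 and 897 CPM in RA 54 h and between 996 and 1063 CPM in untreated 54 h. By 78 h the order had turned, with between 1632 and 1815 CPM with RA and between 1138 and 1176 CPM without. Of the 25 genes of the ventral neural tube list 14 were called up and 1 down among 21 tested at 54 h, with a median of 1.46. Its members are Nkx2-9, Olig2 and Shh. Of the 29 genes of the dorsal neural tube and neural crest list 13 were called up and 4 down among 26 tested at 54 h, with a median of 1.02. Its 3 members gave 1 call, for Snai1, a driver of epithelial to mesenchymal transition (1.21 ± 0.18 (adjusted p = 0.00024) at 54 h), and none for the AP-2 factors Tfap2a and Tfap2b.

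**Figure D3:**
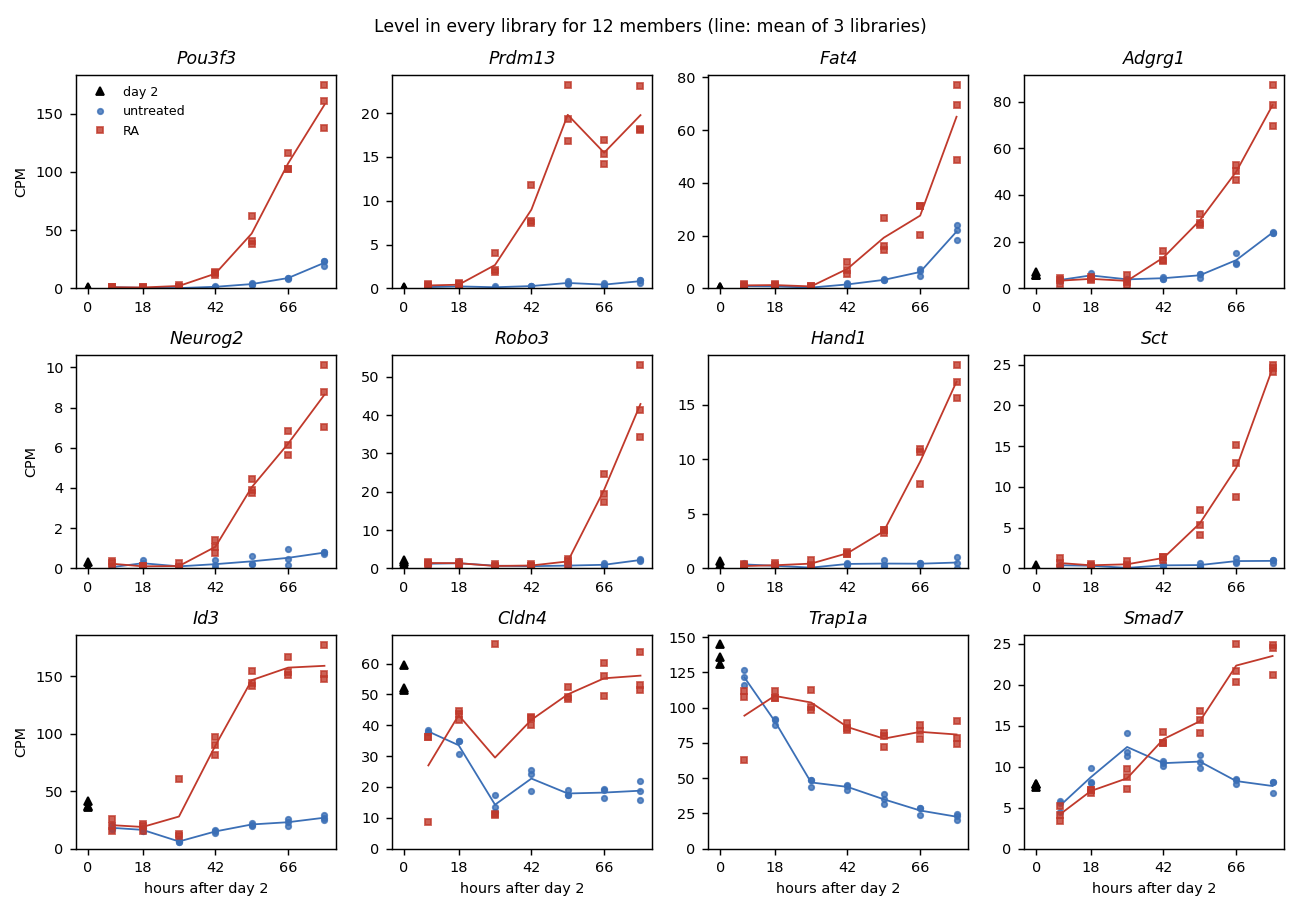
CPM in every library against hours after day 2 for 12 members. Triangles are day 2, circles untreated and squares RA libraries, and lines join the means of 3 libraries. Robo3 is highest at 66 h and 78 h with RA, Prdm13 is level from 54 h, and Cldn4 and Trap1a separate with untreated libraries below day 2. Replicate 2 of RA at 30 h and replicate 3 of RA at 8 h stand apart for Cldn4.

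The trophoblast list holds 3 members, Hand1, Sct and Syna. Hand1, a factor of trophoblast giant cells, gave 3.2, 3.55 and 3.48 CPM with RA and 0.75, 0.357 and 0.227 CPM without at 54 h, a log2 fold change of 2.95 ± 0.33 (adjusted p = 3e-05), and climbed to 18.6, 17.1 and 15.6 CPM with RA. Sct, the hormone secretin, gave 7.12, 5.33 and 4.15 CPM and 0.234, 0.674 and 0.324 CPM at 54 h, with a log2 fold change of 3.67 ± 0.34 (adjusted p = 7.2e-06), and 24.6, 24.1 and 25 CPM with RA at 78 h. These 2 genes had no overlap between arms at 42 or 54 h. Syna, which encodes syncytin A, the envelope-derived fusogen of the placenta, gave 1.09, 0.608 and 0.524 CPM with RA and 0.0937, 0.238 and 0.0971 CPM without at 54 h, a log2 fold change of 2.27 ± 0.51 (adjusted p = 0.0034). This call did not pass without untreated 54 h replicate 1 (2.08) or 3 (2.02) or without RA 54 h replicate 1 (1.90). On 2, 6 and 3 untreated counts at 54 h the size of that fold is uncertain. At 78 h, which chose the members, Syna gave 7.21, 8.19 and 8.22 CPM with RA and 0.151, 0.324 and 0.275 CPM without.

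Pparg, Nxf7, Vtn, Serpinb9e and Dio3 are not in that list, and no list joins them. Pparg, a nuclear receptor of fat and placenta, measured 0.0761, 0 and 0 CPM at day 2, 5.26, 3.92 and 5.05 CPM in RA 54 h and 0.141, 0.0396 and 0.259 CPM in untreated 54 h, a log2 fold change of 4.84 ± 0.36 (adjusted p = 1.6e-06). On 3, 1 and 8 untreated counts at 54 h the size of that fold is uncertain. Nxf7, of the nuclear export factor family, gave 16.8, 14 and 12.8 CPM and 1.03, 0.991 and 0.776 CPM, and 34.4, 35.9 and 39.5 CPM with RA at 78 h. Its log2 fold change was 3.01 ± 0.23 (adjusted p = 2.1e-06) at 42 h and 3.91 ± 0.18 (adjusted p = 3.7e-08) at 54 h. Vtn, the adhesion glycoprotein vitronectin, gave 4.57, 3.38 and 4.49 CPM with RA and 0.0469, 0.0792 and 0.0647 CPM without at 54 h. Its untreated libraries held 1, 2 and 2 counts there, so no fold is given, and the test called it up (adjusted p = 2.9e-07). Serpinb9e, a serine protease inhibitor of a mouse gene cluster, was at 0 in all libraries of day 2 and 30 h and gave 1.42, 1.42 and 0.786 CPM with RA and 0.0937, 0.0792 and 0.0971 CPM without at 54 h. No fold is given for it either, on 2, 2 and 3 untreated counts, and it was called up (adjusted p = 7.2e-05). Dio3, the enzyme that inactivates thyroid hormone and is abundant in placenta, gave 3.68, 2.57 and 3.37 CPM and 0.328, 0.159 and 0.162 CPM, a log2 fold change of 3.85 ± 0.33 (adjusted p = 4.2e-06). In each of these 5 genes the lowest RA library at 54 h exceeded the highest untreated one. How reads shared between near-identical copies were assigned is not given in the sources used here, which touches Serpinb9e, Nxf7, Syna and Fam90a1b.

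Most trophoblast markers with enough counts were called up, the members of that list among them. Of the 34 genes of that list, 25 were tested at 54 h, of which 19 were called up and 2 (Cdx2 and Eomes) down, with a median log2 fold change of 2.27. The 19 and the median include Hand1, Sct and Syna, which were chosen for being high with RA. Without its 3 members (Hand1, Sct and Syna) the list summed to between 856 and 898 CPM in untreated 54 h and between 3647 and 3813 CPM in RA 54 h, and to between 777 and 849 CPM and between 4021 and 4466 CPM at 78 h. At day 2 it was between 1071 and 1090 CPM, and 4 of the 34 genes (Prl2c2, Prl3d1, Prl8a9 and Psg17) were at 3 counts or fewer in every library of RA 78 h. Its part in the members' differences was not tested.

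Vessel and blood cell genes were represented by single members. Cdh5, the endothelial cadherin, gave 2.59, 2.3 and 1.35 CPM with RA and 0.281, 0.555 and 0.162 CPM without at 54 h, a log2 fold change of 2.59 ± 0.42 (adjusted p = 0.00042), and 25.5, 24.6 and 24.2 CPM and 0.491, 1 and 0.797 CPM at 78 h. The other member of that list, the endothelial adhesion molecule Esam, gave 6.74, 6.04 and 6.14 CPM with RA at 78 h and 0.529, 0.971 and 0.687 CPM without, and was not called by 54 h. Of the 21 genes of the endothelium and blood list, 11 were tested at 54 h: Cdh5 and Kdr were called up, and Etv2 and Tal1, which mark the first blood and vessel progenitors, down. Without Cdh5 and Esam the list summed to between 43.7 and 66.8 CPM in RA 78 h and between 39.0 and 46.4 CPM in untreated 78 h, and 7 of the 21 genes were at 3 counts or fewer in every library of RA 78 h. Csf1r, the receptor of macrophage growth factor, reached 3.16, 2.61 and 4.09 CPM in RA 78 h. An exon of it overlaps one of Hmgxb3 on the opposite strand, which holds far more counts, and the strand setting of the counting is not given in the sources used here.

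Epithelial genes among the members were mostly present from the start. Cldn4, a claudin of tight junctions, measured 52, 51.4 and 59.5 CPM at day 2, 48.4, 49.1 and 52.5 CPM in RA 54 h and 17.2, 17.3 and 19.1 CPM in untreated 54 h. The arms differed by 1.42 ± 0.08 (adjusted p = 1.2e-07) on the log2 scale at 54 h, with RA near its day 2 level and untreated libraries far under it. Prss8, a membrane serine protease, gave 27.5, 27.8 and 30.5 CPM with RA and 11.5, 10.4 and 12 CPM without, after 21.3, 19 and 18.9 CPM at day 2 (log2 fold change 1.28 ± 0.09 (adjusted p = 8.8e-07)). Cd9 gave 54.6, 59.7 and 56.1 CPM and 25.9, 29.1 and 25 CPM at 54 h, after 51.8, 50.9 and 49.8 CPM at day 2. Its log2 fold change of 1.03 ± 0.08 (adjusted p = 1.4e-06) sat at the threshold, and fell to 0.99 without untreated 54 h replicate 3 and to 1.00 without RA 54 h replicate 2. Anxa1, a phospholipid-binding annexin, gave 6.55, 4.46 and 5.31 CPM and 2.06, 1.66 and 1.97 CPM at 54 h (log2 fold change 1.45 ± 0.20 (adjusted p = 0.00012)) and kept climbing to 16.1, 14.2 and 15.9 CPM in RA 78 h. Lgals3, a galactose-binding lectin, was later: it gave 4.41, 4.83 and 4.34 CPM and 2.06, 2.73 and 3.36 CPM at 54 h with no call, and 19.8, 19.9 and 16.4 CPM and 3.48, 2.68 and 2.06 CPM at 78 h.

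Of the 75 genes of the surface ectoderm and simple epithelium list, 66 were tested at 54 h, of which 23 were called up and 10 down, with a median of 0.35. The 10 that fell included the epithelial adhesion genes Cdh1 and Epcam and the splicing regulator Esrp1, while Gata3, Elf3 and Dsp rose. Among its 8 members, Anxa1, Cd9, Cldn4, Prss8 and Wnt6 were called up, and Lgals3, S100a6 and Tfap2a were not. The list of adhesion and junction genes holds Cdh5, Cldn4 and Cdh11, a mesenchymal cadherin, and had 15 called up and 7 down of 51 tested. Cdh11 rose in both arms from 0.304, 0.228 and 0.0771 CPM at day 2 to 12.3, 12 and 13.4 CPM with RA and 7.08, 7.85 and 9.64 CPM without at 54 h, with no call between the arms. Matrix and integrin genes, with Vtn as member, had 25 up and 4 down of 80 tested. Of 2 lists that hold no member, mesoderm and mesenchyme had 15 up and 4 down of 40 tested, and primitive and definitive endoderm 12 up of 29. The summed level of the endoderm list at 54 h was between 1572 and 1708 CPM with RA and between 1212 and 1367 CPM without. At 78 h it was between 1282 and 1343 CPM with RA and between 1395 and 1521 CPM without. The mesoderm and mesenchyme list summed to between 710 and 892 CPM with RA and between 237 and 290 CPM without at 54 h. For 78 h its sums were between 881 and 1003 CPM and between 479 and 505 CPM.

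Signalling members came from several pathways. Id3 was the most abundant member, with 36.6, 36.8 and 41.3 CPM at day 2, 97.1, 89.9 and 81.9 CPM in RA 42 h and 15.8, 13.5 and 15.4 CPM in untreated 42 h. Its log2 fold change was 2.53 ± 0.08 (adjusted p = 5.6e-09) at 42 h and 2.75 ± 0.07 (adjusted p = 1.4e-09) at 54 h, and it was nearly level with RA from then on, at 152, 148 and 178 CPM in RA 78 h. Smad7, the inhibitory SMAD that damps TGF-beta and BMP signals, gave 7.3, 9.73 and 8.69 CPM with RA and 11.2, 11.8 and 14.1 CPM without at 30 h. At 54 h it gave 14.1, 15.7 and 16.8 CPM and 10.5, 11.5 and 9.87 CPM, and at 78 h 24.4, 24.8 and 21.2 CPM and 8.08, 8.06 and 6.73 CPM. The order of the arms thus turned between 30 h and 54 h, although the difference was called at neither time. Tgfb2, a TGF-beta ligand, gave 8.01, 8.24 and 9.69 CPM with RA and 1.78, 2.18 and 2.33 CPM without at 54 h, a log2 fold change of 1.97 ± 0.17 (adjusted p = 3.5e-06). Of the 48 genes of the BMP and TGF-beta list, which holds these 3, 15 were called up and 3 down among 46 tested at 54 h, with a median of 0.78. The ligands Bmp2, Bmp4, Bmp6 and Bmp7 and the target Id1 rose, but so did the antagonist Nog, the inhibitory Smad6 and Fstl3. The antagonist Fst fell, and so did the ligands Gdf3 and Gdf10.

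Wnt6, a secreted Wnt ligand of ectoderm, gave 6.59, 6.08 and 6.92 CPM with RA and 1.17, 1.07 and 1.2 CPM without at 54 h, with a log2 fold change of 2.45 ± 0.17 (adjusted p = 1e-06). It is the only member in the Wnt list, of which 15 genes were called up and 7 down among 54 tested. Aldh1a1, a retinaldehyde dehydrogenase that makes RA from its precursor, gave 4.57, 6.18 and 7.18 CPM and 0.234, 0.317 and 0.259 CPM at 54 h, with a log2 fold change of 4.38 ± 0.29 (adjusted p = 5.4e-07). In RA 18 h it was still at 0.139, 0.0856 and 0.0455 CPM. Of the RA pathway list, 9 genes were called up at 54 h, among them Rarb, Crabp2, Dhrs3 and Stra6, and 4 (Cyp26b1, Cyp26c1, Rarg and Rxrg) down, of 25 tested. Kitl, the ligand of the Kit receptor, gave 38.8, 24.8 and 27.6 CPM with RA and 12.1, 8.24 and 9.03 CPM without at 54 h, with a log2 fold change of 1.58 ± 0.17 (adjusted p = 2.6e-05), and was one of 10 members called up at 30, 42 and 54 h.

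Being above the untreated arm did not mean being above day 2. To see which arm had moved, each arm at 54 h was set against day 2, 2 comparisons that share the day 2 libraries and use the same 54 h libraries as the comparison between the arms. Of the 107 members, 62 were called up in RA 54 h against day 2 and 10 down, where the background was 20.6% of 16633 genes up and 14.2% down. In untreated 54 h against day 2, 20 members were called up and 29 down, against 15.0% and 11% of 16354 genes. Enough counts were present for 101 and 81 members. With 10 counts required in every library the upward counts were 25 and 3. At day 2, 47 of the 107 had a mean under 0.5 CPM and 15 had one over 10 CPM. As a description, the median member stood 1.39 above day 2 on the log2(CPM + 0.5) scale in RA 54 h and 0.02 above it in untreated 54 h. In RA 54 h 63 members stood at least 1 above day 2 and 7 at least 1 below, and in untreated 54 h 13 stood above and 18 below.

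**Figure D4:**
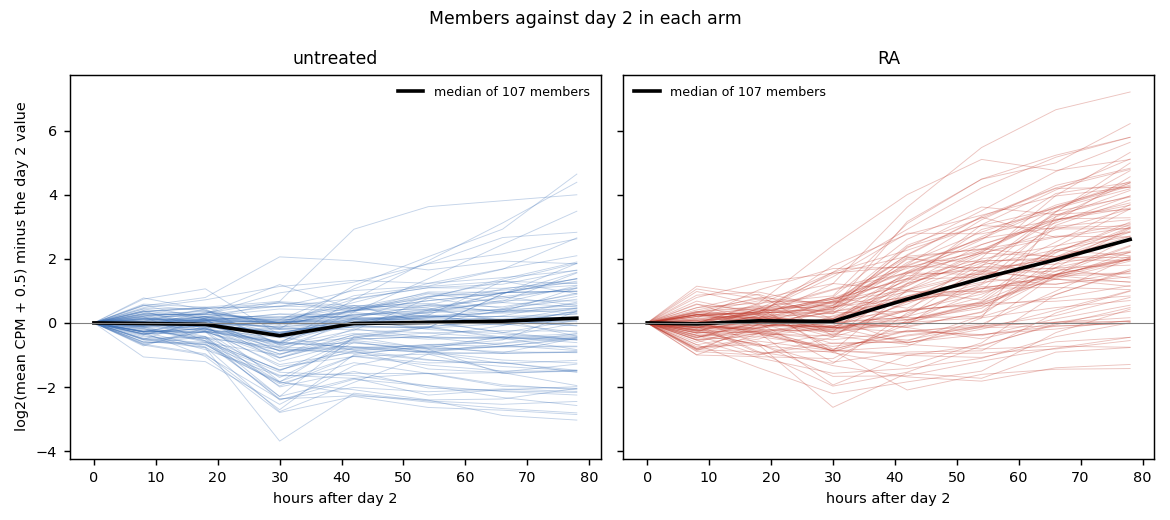
Log2(mean CPM + 0.5) of each of the 107 members minus its day 2 value, against hours after day 2, for untreated (left) and RA (right) libraries. Thin lines are members and the thick line is their median, which stands at 0.02 without RA and at 1.39 with RA at 54 h. The values at 66 h and 78 h were used to choose the members.

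Pou3f3 was gained from day 2 in both arms: it changed by 6.17 ± 0.27 (adjusted p = 1.9e-09) from day 2 to RA 54 h and by 2.54 ± 0.29 (adjusted p = 9.2e-07) to untreated 54 h on the log2 scale. Other members stood at or below their day 2 level. Trap1a measured 145, 136 and 131 CPM at day 2, 72.2, 82 and 79.6 CPM in RA 54 h and 38.4, 31.4 and 34.9 CPM in untreated 54 h. Against day 2 the RA arm stood at -0.97 ± 0.07 (adjusted p = 9.5e-08), just short of the threshold and past it (-1.02) without day 2 replicate 3, and the untreated arm at -2.08 ± 0.07 (adjusted p = 9.3e-13). AU018091, a gene without a functional name, fell in both arms: 147, 139.9 and 132 CPM at day 2, 31.4, 48.5 and 45.5 CPM in RA 54 h and 27.9, 23.7 and 24.6 CPM in untreated 54 h. The log2 changes were -1.89 ± 0.13 (adjusted p = 8.4e-08) and -2.56 ± 0.07 (adjusted p = 8.4e-14). Slc30a2, a zinc transporter, was called down against day 2 in both arms, by -1.38 ± 0.09 (adjusted p = 4.9e-08) in RA 54 h and -2.85 ± 0.11 (adjusted p = 2.8e-12) in untreated 54 h, as were Rbm47, an RNA-binding protein (-1.25 ± 0.09 (adjusted p = 1.9e-07) and -2.14 ± 0.10 (adjusted p = 1.8e-11)), and Gadd45g, a growth arrest gene of early neuronal precursors (-1.78 ± 0.08 (adjusted p = 2.9e-09) and -2.55 ± 0.09 (adjusted p = 1.1e-12)). Gadd45g gave 61, 58.9 and 70.7 CPM at day 2, 22.2, 20.2 and 19.2 CPM in RA 54 h and 10.9, 11.2 and 12.6 CPM in untreated 54 h. Id3 had a low point instead, at 5.33, 7.4 and 5.69 CPM in untreated 30 h. Those libraries all had low counts of Y chromosome genes, so that time and this difference between libraries cannot be told apart there. The untreated level of Id3 at 54 h was -0.96 ± 0.08 (adjusted p = 2.7e-08) against day 2, past the threshold without day 2 replicate 1 (-1.03) or 2 (-1.02) or untreated 54 h replicate 3 (-1.02). Of the 107 members, 7 had their highest mean at day 2 (AU018091, Fcgrt, Nos1, Rbm47, Rinl, Snai1 and Trap1a).

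At 30 h the 2 kinds of library described at the outset cross the comparison. All untreated libraries and RA replicates 1 and 3 had low counts of Y chromosome genes, and RA replicate 2 did not. With RA replicate 2, 13 members were called up and 0 down. Without it, 13 were called up, 12 of them shared, and 3 (Adgrg1, Lgals3 and Scrt2) were called down, beside 8.96% of 16832 genes up and 4.54% down. The 13 called with all libraries were Draxin, Fcgrt, Gadd45g, Gcnt4, Gm5039, Kitl, Mir99ahg, Pax9, Pou3f3, Prdm13, Tfpi, Tmem92 and Trap1a. Kitl gave 14, 22.2 and 14.1 CPM with RA and 5.51, 5.67 and 4.42 CPM without, a log2 fold change of 1.55 ± 0.22 (adjusted p = 0.0023), and it was 1.31 without RA replicate 2. That call was lost without untreated replicate 1 (1.57), 2 (1.58) or 3 (1.41). Prdm13 gave 2.13, 4.03 and 1.82 CPM and 0.247, 0.0578 and 0.0491 CPM, a log2 fold change of 4.15 ± 0.59 (adjusted p = 0.0024), and 3.70 without that library. On 7, 1 and 1 untreated counts the size of that fold is uncertain. The call was lost without untreated replicate 2 (3.85) or 3 (3.76). Pax9, a paired-box gene of pharyngeal pouches and somites, gave 1.13, 1.73 and 0.986 CPM with RA and had 0 counts in all 3 untreated libraries. For Id3, RA replicate 2 gave 60.3 CPM where the other 2 gave 12.8 and 10.5 CPM, and for Prss8 43.4 CPM against 5.73 and 6.32 CPM. What sets that library apart cannot be told from the counts, and its part in the time course of the members at 30 h was not tested beyond leaving it out.

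With all libraries, 1 member was called down between the arms at a tested time. Gm16551, a processed transcript, gave 0.241, 0.0396 and 0.166 CPM with RA and 0.441, 1.36 and 0.546 CPM without at 42 h, a log2 fold change of -2.47 ± 0.64 (adjusted p = 0.0082). The call did not pass without RA 42 h replicates 1 (-2.95), 2 (-2.0) or 3 (-2.58) or untreated 42 h replicate 2 (-1.81), nor with the replicate block. By 78 h it gave 4.11, 4.45 and 5.24 CPM with RA and 0.793, 0.559 and 0.385 CPM without.

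Whether the RA effect grew from 30 h to 54 h was tested as the difference of the 2 effects in 1 fit of 12 libraries. Over 17605 genes 0.335% had a higher effect at 54 h and 2.24% a lower one at the same thresholds. Among the members 6 were higher: Adgrg1, Fam90a1b, Flrt2, Lonrf3, Prdm16 and Smad7. DESeq2 put 15 higher, and in edgeR 26 were higher and 6 lower at an unadjusted p under 0.05. Without RA 30 h replicate 2 the count was 26 higher and 3 lower (Esrrg, Gm5039 and Pax9), beside 1.75% and 4.28% of 17845 genes. In that fit every 30 h library had low counts of Y chromosome genes and no 54 h library did, so that time and kind of library cannot be told apart. The higher count was 2 without untreated 54 h replicate 1 or 3 and 3 without untreated 54 h replicate 2 or RA 54 h replicate 3. For Prdm16 the difference was 1.52 ± 0.27 (adjusted p = 0.0044), and for Smad7, whose RA libraries were the lower ones at 30 h, 1.17 ± 0.19 (adjusted p = 0.0026). Prdm16 lost this call without untreated 54 h replicate 1 (1.54), 2 (1.54) or 3 (1.47) or RA 54 h replicate 2 (1.56) or 3 (1.45), and Smad7 without untreated 54 h replicate 3 (1.13).

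Several members are neighbours in the genome. Beside Pou3f3 and Pantr1, the pair Nkx2-9 and Pax9 lies 78.5 kb apart on chromosome 12 with 0 coding genes between, and Gm38103 lies 0.9 kb from Nkx2-9. Aldh1a1 and Anxa1 lie 101.8 kb apart on chromosome 19, again with 0 coding genes between. Shh and En2 are 284.6 kb apart on chromosome 5 and Serpinb9 and Serpinb9e 231.7 kb apart on chromosome 13, with 2 and 4 coding genes between. S100a13 and S100a6, calcium-binding proteins of one cluster, are 88.3 kb apart on chromosome 3. Neighbours did not always keep the same time: Shh was called at 54 h and En2 was not, and Serpinb9e was called and Serpinb9 was not. Exons of 27 members overlap an exon of another gene of the table, and for 9 of them (Clvs1, Csf1r, Fabp3, Hk3, Pax9, Prss8, St6galnac5, Tfap2a and Zic4) that gene, on the opposite strand, has at least 10% of the member's highest count.

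The promoters of the members were read from RefSeq sequences of GRCm38.p6, 250 bases before to 50 bases after a start. A promoter was found for 76 members, 103 promoters in all. A direct repeat of the half-sites AGGTCA or AGTTCA, the form that RA receptors bind, with 1, 2 or 5 bases between was in 0 of the 103, on either strand, and in 0.08%, 0.04% and 0.04% of all 32851 promoters. At shares this low, 0 of 103 cannot set the members apart from all promoters, and other half-site sequences were not searched. A single half-site was in 19.4% of the members' promoters and 27.7% of all. The E-box CAGCTG or CAGATG, bound by proneural factors, was in 22.3% and 30.6%, the GATA motif AGATAA in 7.77% and 11.2%, and TATAAA in 14.6% and 13.6%. The median GC content was 55.7% beside 52.7%, and the median ratio of observed to expected CpG was 0.52 beside 0.38. With TATAAA on the strand of the gene and its first base 20 to 35 bases before the start, a window chosen after the matches were seen, the shares were 7.77% (7 members) and 1.84%. Because the window followed the matches, these 2 shares do not measure a difference, and over the whole promoter the shares were 14.6% and 13.6%. Stretches of 5 members are shown as examples of the match, with the TATA box in capitals, 5′ to 3′ on the strand of the gene.
Dio3 (chr12:110279187-110279216, plus strand): tcaagctttgacTATAAAttgagctcccag
Sct (chr7:141279144-141279173, minus strand): ggtcccggcagcTATAAAgcggtggcgcgg
Tgfb2 (chr1:186706003-186706032, minus strand): ttggggagcacaTATAAAactctgctccgg
Gadd45g (chr13:51846636-51846665, plus strand): gccgagcctgtcTATAAAagggctctcccg
Kitl (chr10:100015784-100015813, plus strand): gggagggagctgTATAAAaagcgctggcgg

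The first T lies 31 bases before the start in Dio3 and Tgfb2, 28 in Sct, 27 in Gadd45g and 25 in Kitl. These 5 members differ in their course: Dio3, Sct and Tgfb2 were first called at 42 h (Dio3 and Sct had too few counts to test at 30 h), Kitl at 30 h with calls at every later time tested, and Gadd45g at 30 h alone. Single half-sites are shown for 3 members, with the half-site or its reverse complement in capitals, because they are the letters searched as RA receptor half-sites.
Fat4 (chr3:38886828-38886857, plus strand): cacccactcttcTGAACTgcagaggtctct
Anxa1 (chr19:20390697-20390726, minus strand): aggtgtggcttcAGTTCAtatcctataaaa
Cldn4 (chr5:134947134-134947163, minus strand): ctgtgtcccagcTGACCTcagcgtgagcct

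In Fat4 the half-site begins 100 bases before the start, in Anxa1 43 and in Cldn4 217. A match describes letters in a window, and receptor binding was not measured in these data.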

How the data were processed

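RNA from mouse neuroepithelial organoids was measured by poly(A) RNA sequencing in 45 libraries, grouped by their labels into day 2, RA and untreated at 7 times, 3 each. Per the labels and the study's methods, the authors trimmed reads with Trim Galore 0.5.0, used Bowtie 2 2.3.4.1 and aligned them with STAR to GRCm38, and counted them per gene with featureCounts (Subread 1.6.2); the deposited values are raw counts, not normalized. The library kit was directional, so that reads carry their strand, but whether the counting used it is not given in the sources used here, and values of genes that overlap on opposite strands are uncertain.

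CPM is a count scaled to a library total of 1000000. Positions come from GENCODE M21. The members and the gene lists were chosen with earlier results of these data known, and values at 8, 18, 66 and 78 h chose the members, so that no test is given on them. Comparisons at 30, 42 and 54 h and against day 2 used edgeR 4.0.16 (R 4.3.3) with TMM factors, filterByExpr (minimum count 10, minimum total 15), glmQLFit and glmQLFTest, only the groups compared, and Benjamini-Hochberg adjustment over all genes tested. Standard errors were derived from the F statistic. The code was tested on simulated data. p-values rest on 3 biological replicates a group. No 2 replicates agreed within sampling noise (lowest mean chi-square per gene 1.97).

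Alternatives were other scalings and filters, DESeq2 1.42.0, 1 fit of all libraries, the replicate number as a block, the earlier library series and each library left out. Members were named by a rule: those in a gene list, the 12 highest by level and by d at 78 h, the 6 largest and 6 smallest at 54 h, up to 6 called at 30 h, those called down, those nearest a threshold and those neighbouring another, 70 in all. Draxin, Flrt2, Gcnt4, Kitl, Nos1, Pax2, Pou3f4, Prdm16, Rbm47, Slc30a2, Zic4 and other members named only for a call or an overlap were named after their values were seen.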

Additional observations from a re-analysis of the deposited data

Results flagged for a closer look

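In 6 members the difference between the arms was not the same at 54 h as at 30 h, by the test of that change itself in edgeR with 12 libraries. The log2 difference of the 2 effects was 2.74 ± 0.46 (adjusted p = 0.003) for Adgrg1, 6.39 ± 1.26 (adjusted p = 0.0076) for Fam90a1b, 1.61 ± 0.30 (adjusted p = 0.0053) for Flrt2, 1.89 ± 0.30 (adjusted p = 0.0022) for Lonrf3, 1.52 ± 0.27 (adjusted p = 0.0044) for Prdm16 and 1.17 ± 0.19 (adjusted p = 0.0026) for Smad7. Each kept its call without RA 30 h replicate 2, the library that stood apart at 30 h, at 3.36, 5.86, 1.6, 2.04, 1.54 and 1.26 in the same order. In that fit all 30 h libraries had low counts of Y chromosome genes and no 54 h library did. Time and kind of library cannot be told apart there, and with all libraries only that replicate of 30 h was of the kind at 54 h. The value for Fam90a1b rests on a handful of reads at 30 h and depends on the prior count of the fit, so that it is no estimate of a fold. Lonrf3, a RING finger gene of the X chromosome, kept its call without any 1 of the 12 libraries. Of the 12 such fits, Fam90a1b lost its call in 9, Flrt2 in 8 and Prdm16 in 5. Smad7 lost it without untreated 54 h replicate 3 (1.13) alone, and Adgrg1 without untreated 30 h replicate 2 (2.71) or untreated 54 h replicate 1 (2.59).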

How the results depend on the processing

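Upward calls at 42 h and 54 h, and calls in both directions against day 2, stayed within 1.5 times their value under the alternatives tried, with the exceptions that follow. With 10 counts in every library, members called up numbered 6, 27 and 49 at 30, 42 and 54 h, 25 in RA 54 h and 3 in untreated 54 h against day 2, and 0 were called down at 42 h; fewer genes are tested there. At 30 h one fit of all libraries gave 43 up and 1 down, an adjusted p under 0.05 with no minimum fold 24 and 2, and DESeq2 and the earlier library series 1 down each. With the looser threshold 2 were down at 42 h and 19 down in RA 54 h against day 2. The RA effect was higher at 54 h in 15 members without a filter, 15 with DESeq2, 14 in one fit of all libraries, 16 in the earlier series and 14 with the looser threshold. In the earlier series RA 30 h keeps 1 library, assumed to vary like the others. The cause was not tested. Leaving out 1 library at a time gave 1 to 13 up and 0 to 3 down at 30 h, 42 to 47 and 0 to 1 at 42 h, 70 to 76 and 0 at 54 h, 62 to 64 and 9 to 10 in RA 54 h and 14 to 19 and 27 to 31 in untreated 54 h against day 2, 2 to 26 for the higher effect, and 98 to 113 members by the rule. The rule gave 43 members with a bound of 0.25, 72 with a pseudocount of 0.1, 117 with 1 and 120 with TMM-normalized CPM. Same-numbered libraries share only a number: their deviations correlated between -0.341 and 0.212 over 5 comparisons. With the replicate block, members called up were 13, 45 and 73 at 30, 42 and 54 h, 61 and 19 against day 2 and 5 for the higher effect, and 0 were down at 42 h.

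A level of 3 counts was 0.0756 to 0.173 CPM by library, so that differences between levels under it were not detectable at this depth. Scaling by library totals in place of TMM shifted the median over all genes by 0.138 (log2) at 30 h, where 14 members were called up, and by 0.154 in RA 54 h against day 2, where 63 were called up and 8 down; the other shifts were within 0.1.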
